A study of Homo sapiens with 6 samples.

Results

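Replication-dependent histone genes were examined in HCT116 and DNMT3B KO cells. Members were all genes whose symbol matched the names of the clustered histone genes. These names are H1-1 to H1-6 and the numbered H2AC, H2BC, H3C and H4C genes. The rule used no measured value, but it was chosen with earlier results of these data known. The rule found 66 members among the 60666 genes listed, comprising 6 H1, 16 H2A, 17 H2B, 13 H3 and 14 H4 genes. RNA-seq had been performed on 3 libraries of HCT116 cells, a human colorectal carcinoma line labelled WT, and on 3 libraries of DNMT3B KO cells, a derivative of the same line in which the de novo DNA methyltransferase gene DNMT3B was knocked out. Both lines came from the same source laboratory, were grown in the same serum-containing McCoy's 5A medium and received no treatment. DNMT3B KO is a single derived line, and the libraries of a line are not stated to come from separate cultures. All p-values here reflect the spread among these 6 libraries alone, which may be technical.

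Replication-dependent histone genes supply the linker histone H1 and the core histones H2A, H2B, H3 and H4 that package newly replicated DNA, and they are transcribed mainly in S phase. Their mRNAs typically end in a conserved stem-loop bound by SLBP instead of a poly(A) tail, while some members also give polyadenylated transcripts. The libraries were made with a stranded mRNA kit, which selects polyadenylated RNA, so the values describe the part of histone RNA that entered such libraries and not the total histone mRNA of the cells. In RNA from whole cultures, fewer cells in S phase and less histone RNA per cell cannot be told apart.

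The estimated counts per library summed to between 55436267 and 68274783, and 16959 genes passed the filter on low counts and were tested. DNMT3B measured 38.5, 30.1 and 39.5 CPM (counts scaled to library size by TMM) in the HCT116 libraries and 2.54, 2.87 and 2.83 CPM in the DNMT3B KO libraries, with no overlap (log2 fold change -3.71, edgeR quasi-likelihood adjusted p = 2.51e-06). HCT116 replicate 2 stood apart in 19 genes of S phase and DNA replication, which summed to 2600 CPM in it, to 4227 and 5028 CPM in the other HCT116 libraries and to between 3919 and 4123 CPM in DNMT3B KO libraries. Of 7 colorectal epithelium markers, all were tested, 1 rose (VIL1), 4 fell (CDH1, KRT8, KRT18 and KRT19) and EPCAM and CDX2 did not pass, and the list summed to between 4388 and 5256 CPM in HCT116 and between 2123 and 2310 CPM in DNMT3B KO libraries. Fibroblast markers summed to between 9.98 and 19.9 CPM in HCT116 and between 15.3 and 17.9 CPM in DNMT3B KO libraries, with LUM at 0 throughout, and blood and immune markers to between 5.87 and 14.4 CPM and between 15.7 and 21.3 CPM. Over all tested genes, 28.1% were called. The part of these markers in the values of the members was not tested. Members with a count numbered 40 to 44 in the HCT116 libraries and 39 or 40 in the DNMT3B KO libraries.

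Histone RNA was sparse in these libraries and its level, summed over all members, was lower in DNMT3B KO cells. The 66 members together measured 31.4, 36.6 and 30.0 CPM in HCT116 replicates 1, 2 and 3, and 19.7, 26.1 and 19.9 CPM in DNMT3B KO replicates 1, 2 and 3. All DNMT3B KO libraries lay below all HCT116 libraries, with means of 32.7 ± 3.48 CPM (SD, n = 3) and 21.9 ± 3.68 CPM (SD, n = 3). With library totals alone as the scale, the HCT116 libraries ranged from 27.3 to 35.9 CPM and DNMT3B KO replicate 2 reached 27.7 CPM, so that the groups then overlapped. A few members held most of these reads, since the top 4 took 54.9% of the 10207 member counts and the top 10 took 76.4%. By contrast, 18 members had no count in any library, which allows up to 3 counts per library, or 0.0416 to 0.0595 CPM. Of the 48 others, 24 were tested and 24 were below the filter.

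The summed level was lower in H1, H2A, H2B and H3 but not in H4. H1 genes summed to 5.77 ± 0.145 CPM (SD, n = 3) in HCT116 libraries against 2.95 ± 0.974 CPM (SD, n = 3) for DNMT3B KO, a ratio of 0.512. H3 genes had a ratio of 0.495, from 2.57 ± 0.523 to 1.27 ± 0.277 CPM (SD, n = 3 each). H2A genes, with a ratio of 0.702, went from 9.51 ± 1.89 to 6.67 ± 1.24 CPM (SD, n = 3 each), and H2B genes, with a ratio of 0.679, from 11.9 ± 0.695 to 8.05 ± 0.945 CPM (SD, n = 3 each). The libraries of the lines did not overlap in any of these classes, although those of H2A did with library totals alone as the scale. H4 genes measured 2.95 ± 0.236 CPM (SD, n = 3) in HCT116 libraries against 2.94 ± 0.523 CPM (SD, n = 3) for DNMT3B KO, with overlapping libraries. These sums are descriptions without a test, and each is carried by its most abundant members, which are described by class further on. A lower sum does not mean that most genes of the class fell. In H3, the tested genes H3C6 (HCT116 1.22, DNMT3B KO 0.229 CPM) and H3C10 (0.878, 0.169 CPM) had lower means in DNMT3B KO. The other tested H3 genes, H3C12 (0.0969, 0.244 CPM) and H3C14 (0.164, 0.3075 CPM), had higher ones. Both had overlapping libraries and did not pass (edgeR adjusted p = 0.119 and 0.397), and the counts of H3C14 are uncertain because of a near copy.

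**Figure D1:**
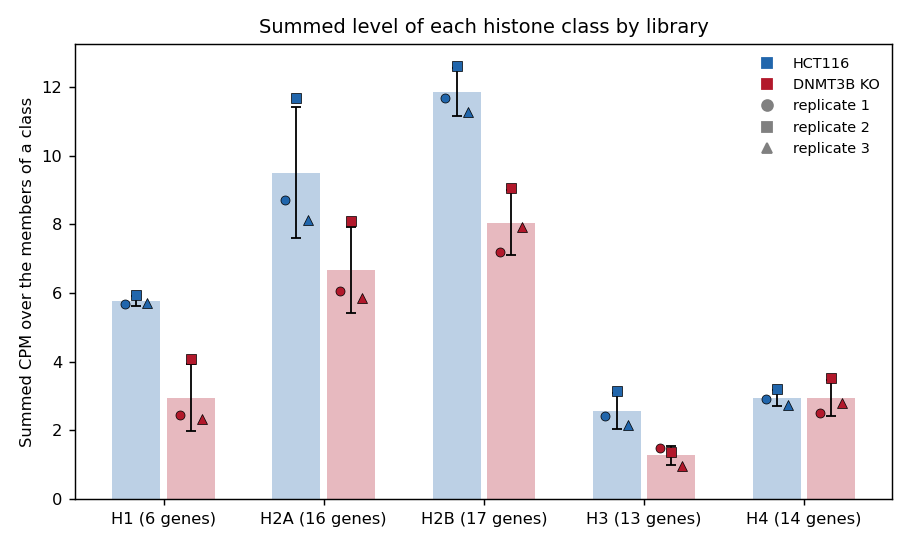
Summed CPM of the members of each histone class (y axis, linear from 0) for HCT116 (blue) and DNMT3B KO (red), with bars at the mean, error bars of 1 SD and points for the 3 libraries of each line, whose shape gives the replicate. The red points lie below the blue ones in H1, H2A, H2B and H3, and overlap them in H4 (means 2.95 and 2.94 CPM).

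Tested one by one, 7 of the 24 tested members (29.2%) changed at an adjusted p under 0.05, against 28.1% of all tested genes. H1-2, H2AC6, H2BC5, H2BC12, H3C6 and H3C10 fell, and H2BC11 rose. Over all tested genes, 15.1% fell and 12.9% rose. Libraries of the lines did not overlap for 12 tested members, 8 lower and 4 higher in DNMT3B KO cells, against 45.9% of all tested genes. The share of members called was thus close to the background. The median log2 fold change of the tested members was -0.40, with a range from -2.42 to 1.85, while the median over all tested genes was -0.00063. By class, 1 of 2 tested H1 genes fell, 1 of 7 H2A genes fell, 2 of 7 H2B genes fell and 1 rose, 2 of 4 H3 genes fell, and of 4 tested H4 genes 0 were called by edgeR, 0 had an unadjusted p under 0.05 and 0 were called by DESeq2.

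**Figure D2:**
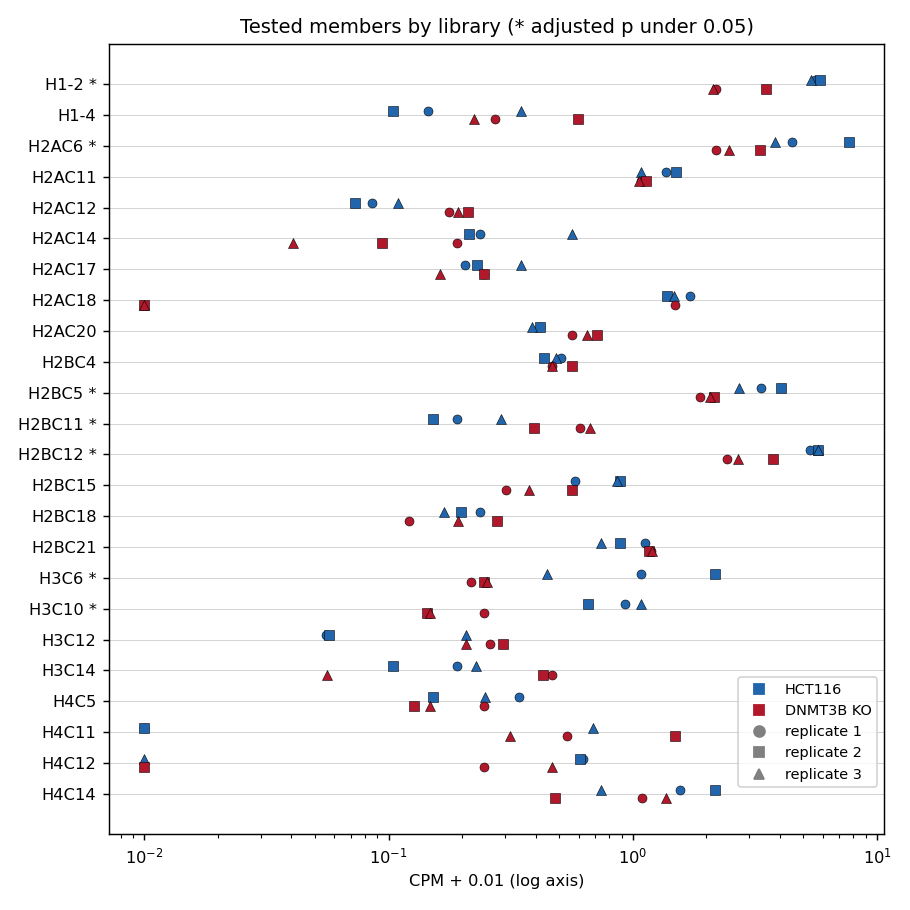
CPM of each of the 24 tested members in the 3 HCT116 libraries (blue) and the 3 DNMT3B KO libraries (red), on a log axis after adding 0.01, with the shape of a point giving the replicate and an asterisk marking an adjusted p under 0.05. H1-2, H2AC6, H2BC5 and H2BC12 sit above 1 CPM in all 6 libraries, H3C6, H3C10 and H2BC11 lie lower, and H2AC18, H4C11 and H4C12 have libraries at 0 beside libraries well above it.

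The start-proximal sequences of the 7 members that changed are shown with matches to regulatory elements known from histone genes. All lie on chromosome 6 of GRCh38.p14 and are RefSeq sequences of the 150 bases before the start that RefSeq annotates, written 5′ to 3′ on the gene's strand. The RefSeq start is the GENCODE gene start used for all other positions in H1-2, H2BC11 and H3C10, and lies 1, 3 and 21 bases upstream of it in H2BC5, H2BC12 and H3C6. In H2AC6 it lies 27 bases downstream, so that the last 27 printed bases are within the GENCODE gene. Capitals mark matches on either strand to the octamer ATTTGCAT, which POU2F1 binds, to the CCAAT box, to the TATA element TATAAA, or to the element AAACACA known from H1 promoters. No 2 marked matches overlap.
H1-2 (chr6:26056471-26056620, minus strand): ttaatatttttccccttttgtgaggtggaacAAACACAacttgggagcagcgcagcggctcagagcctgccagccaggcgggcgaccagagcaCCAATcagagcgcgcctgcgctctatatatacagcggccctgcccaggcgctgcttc
H2AC6 (chr6:26124022-26124171, plus strand): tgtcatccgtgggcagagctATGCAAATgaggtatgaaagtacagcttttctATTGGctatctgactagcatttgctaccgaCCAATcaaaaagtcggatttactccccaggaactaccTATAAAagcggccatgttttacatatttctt
H2BC5 (chr6:26157971-26158120, plus strand): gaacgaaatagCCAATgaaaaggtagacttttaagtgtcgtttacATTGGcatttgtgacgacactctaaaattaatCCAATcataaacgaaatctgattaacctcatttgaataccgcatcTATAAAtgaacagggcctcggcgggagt
H2BC11 (chr6:27132796-27132945, minus strand): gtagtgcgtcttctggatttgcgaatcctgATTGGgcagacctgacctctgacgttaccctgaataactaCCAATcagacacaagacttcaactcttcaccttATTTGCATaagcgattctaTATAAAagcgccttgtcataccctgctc
H2BC12 (chr6:27146859-27147008, minus strand): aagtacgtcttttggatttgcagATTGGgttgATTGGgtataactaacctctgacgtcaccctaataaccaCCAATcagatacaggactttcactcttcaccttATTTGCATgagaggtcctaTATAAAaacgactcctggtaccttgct
H3C6 (chr6:26224028-26224177, plus strand): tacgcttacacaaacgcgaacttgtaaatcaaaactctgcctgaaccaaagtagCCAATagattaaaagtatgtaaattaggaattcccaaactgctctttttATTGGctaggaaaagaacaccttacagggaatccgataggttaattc
H3C10 (chr6:27809901-27810050, plus strand): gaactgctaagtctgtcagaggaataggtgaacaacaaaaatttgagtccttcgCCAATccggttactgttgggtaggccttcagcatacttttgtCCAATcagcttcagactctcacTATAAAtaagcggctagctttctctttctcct
Counted from the RefSeq start, the TATA element began 27 to 32 bases before it in H2AC6, H2BC5, H2BC11, H2BC12 and H3C10, and no TATAAA was found in the stretches of H1-2 and H3C6. H2BC11, which rose, and H2BC12, which fell, both had CCAAT boxes followed by an octamer, which began 47 and 46 bases before the start, and a TATA element. Windows of 300 bases (250 before to 50 after the start) were matched for 61 members and searched for each motif separately. The octamer was found in 11 of 15 H2A and 14 of 17 H2B windows, in 1 of 11 H3 windows and in 0 of 6 H1 and 0 of 12 H4 windows, against 1.8% of all 27305 windows in the table. CCAAT was found in 52 of 61 members (35.7% of all windows), TATAAA in 41 (3264 of all windows) and AAACACA in 9 (5.76%), among them all 6 H1 genes. The windows of members held a median of 11 CpG dinucleotides, from 3 to 27, against a median of 14 over all windows, and those of the 7 members that changed held 8 to 15. No promoter methylation was analysed here. The members H3C12, H4C1, H2AC12, H4C3 and H3C11 had no entry.

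H1-2, which encodes a linker histone expressed in most dividing cells, held nearly all H1 reads. It lies on chromosome 6 from 26055740 to 26056470 (hg38) as a single exon on the minus strand. H1-2 measured 5.54, 5.83 and 5.36 CPM in HCT116 libraries and 2.19, 3.49 and 2.12 CPM in DNMT3B KO libraries, without overlap. It fell 2.15-fold (log2 fold change -1.10, standard error 0.23, edgeR quasi-likelihood adjusted p = 0.0098). All 50-base stretches of its transcript were unique among annotated transcripts, and its call held in all 13 alternatives tried. The linker histone gene H1-4 had 9, 6 and 17 counts in HCT116 and 19, 35 and 14 counts in DNMT3B KO libraries, which overlapped, and did not pass (log2 fold change 0.93, standard error 0.59, edgeR adjusted p = 0.286). Its log2 fold change was 0.37 without DNMT3B KO replicate 2 and 1.60 without HCT116 replicate 3. H1-6, the testis-expressed H1 gene, had 1 count in 1 library, and H1-1, H1-3 and H1-5 had no count in any.

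Among H2A genes, H2AC6 was the most abundant and the one that fell. H2AC6 has 3 annotated transcripts, some spliced, between 26124145 and 26139116 on chromosome 6. Its level was 4.49, 7.68 and 3.83 CPM in HCT116 replicates 1, 2 and 3 and 2.18, 3.30 and 2.47 CPM in DNMT3B KO replicates 1, 2 and 3. The groups did not overlap, HCT116 replicate 2 was well above its other replicates, and the fall was 2.02-fold (log2 fold change -1.01, standard error 0.30, edgeR adjusted p = 0.0401). The call of H2AC6 was lost without HCT116 replicate 1 or 2 and without DNMT3B KO replicate 1, 2 or 3 (adjusted p = 0.0685, 0.0536, 0.137, 0.0614 and 0.126), and without HCT116 replicate 2 its log2 fold change was -0.66.

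The other tested H2A genes did not pass. H2AC11 had 90, 95 and 54 counts in HCT116 and 77, 67 and 69 in DNMT3B KO libraries (log2 fold change -0.27, standard error 0.25, edgeR adjusted p = 0.46). H2AC12 had 5, 4 and 5 counts in HCT116 and 12 in each DNMT3B KO library, all of which were higher, but missed the threshold (log2 fold change 1.21, standard error 0.40, edgeR adjusted p = 0.057). H2AC14 had 15, 13 and 28 counts against 13, 5 and 2, also without overlap in CPM (log2 fold change -1.68, standard error 0.66, edgeR adjusted p = 0.0947). Its log2 fold change was -1.09 without HCT116 replicate 3 and -2.48 without DNMT3B KO replicate 1. Of the 50-base stretches of H2AC14, 33.7% were unique and 66.3% were shared with H2AC13. H2AC20 was higher in each DNMT3B KO library, with 27, 26 and 19 counts against 40, 42 and 42 (edgeR adjusted p = 0.122), and H2AC17 overlapped, with 13, 14 and 17 counts against 17, 14 and 10. The reads of H2AC17 are uncertain, since 32.2% of its 50-base stretches were unique and its exon overlaps a transcript of H3C12 on the same strand.

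H2BC12 and H2BC5, the most abundant H2B genes, fell, and the much lower H2BC11 rose. H2BC12, a single exon from 27146361 to 27146855 on chromosome 6, measured 5.31, 5.72 and 5.71 CPM in HCT116 and 2.43, 3.76 and 2.68 CPM in DNMT3B KO libraries, without overlap. It fell 1.89-fold (log2 fold change -0.92, standard error 0.21, edgeR adjusted p = 0.0137), a call lost without DNMT3B KO replicate 1 or 3 (adjusted p = 0.0606 and 0.0627). Of its 50-base stretches 42.8% were unique and 47.8% were shared with each of 2 copies annotated on chromosome 21, which together were assigned 1 count over the 6 libraries. H2BC5, between 26158122 and 26171349 with a spliced transcript, measured 3.34, 4.04 and 2.72 CPM in HCT116 and 1.87, 2.15 and 2.06 CPM in DNMT3B KO libraries, again without overlap. Its fall of 1.66-fold (log2 fold change -0.73, standard error 0.22, edgeR adjusted p = 0.0412) was the least stable, since the call was kept in 5 of 13 alternatives. Among the libraries left out one at a time, it was kept without HCT116 replicate 3 and lost without each of the others (adjusted p from 0.0606 to 0.137).

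H2BC11, between 27125897 and 27132795 on chromosome 6 with 3 annotated transcripts, was the single member that rose. It measured 0.18, 0.14 and 0.28 CPM in HCT116 and 0.60, 0.39 and 0.66 CPM in DNMT3B KO libraries, from 12, 9 and 14 counts against 43, 23 and 43. The groups did not overlap and the rise was 2.75-fold (log2 fold change 1.46, standard error 0.39, edgeR adjusted p = 0.027). The call was lost without HCT116 replicate 1 or 2 and without DNMT3B KO replicate 1 or 3 (adjusted p = 0.107, 0.0568, 0.0972 and 0.108). H2BC15 had 38, 56 and 43 counts in HCT116 and 21, 33 and 24 in DNMT3B KO libraries and did not pass (log2 fold change -0.93, standard error 0.36, edgeR adjusted p = 0.091), although its libraries did not overlap in CPM. H2BC21, with 74, 56 and 37 counts against 85, 69 and 78, was also without overlap in CPM and did not pass (log2 fold change 0.37, edgeR adjusted p = 0.353). H2BC4, with 33, 27 and 24 counts against 33, 33 and 30, and H2BC18, with 15, 12 and 8 against 8, 16 and 12, had overlapping libraries.

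H3C6 and H3C10, which both encode canonical H3, had the lowest fold changes of the tested members with all 6 libraries. That of H2AC14 was below that of H3C6 without HCT116 replicate 2 or DNMT3B KO replicate 1. Without DNMT3B KO replicate 1, H2AC18 was also called lower. It had 0 counts in DNMT3B KO replicates 2 and 3, where its near copy H2AC19 had 134 and 81. H3C10, annotated from 27810051 to 27811300 on chromosome 6, measured 0.92, 0.64 and 1.07 CPM in HCT116 and 0.24, 0.13 and 0.14 CPM in DNMT3B KO libraries. The groups were well separated and H3C10 fell 5.10-fold (log2 fold change -2.35, standard error 0.38, edgeR adjusted p = 0.0030), a call that held in all 12 alternatives in which it was tested. H3C6, from 26224199 to 26227473 with a spliced transcript, measured 1.07, 2.17 and 0.44 CPM in HCT116 and 0.21, 0.23 and 0.24 CPM in DNMT3B KO libraries. The HCT116 libraries differed widely, from 22 counts in replicate 3 to 138 in replicate 2, but all lay above the DNMT3B KO libraries, which had 15, 14 and 16 counts. H3C6 fell 5.34-fold (log2 fold change -2.42, standard error 0.57, edgeR adjusted p = 0.0151), and the call was lost without DNMT3B KO replicate 1, 2 or 3 (adjusted p = 0.0658, 0.0638 and 0.059). Without HCT116 replicate 2, the library in which it was highest, its log2 fold change was -1.73 (adjusted p = 0.0178). H3C12 pointed the other way without passing, with 3, 3 and 10 counts in HCT116 and 18, 17 and 13 in DNMT3B KO libraries (log2 fold change 1.39, standard error 0.59, edgeR adjusted p = 0.119). Without HCT116 replicate 3, which had the most counts of that line, H3C12 had a log2 fold change of 2.36 (adjusted p = 0.0114). H3C14 and its near copy H3C15 are given with the other near-identical pairs.

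**Figure D3:**
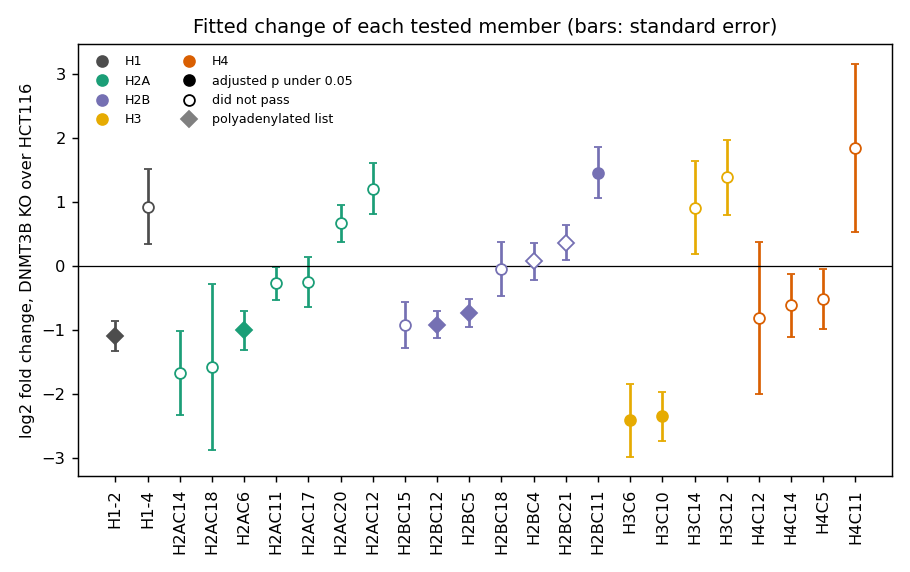
Fitted log2 fold change (DNMT3B KO over HCT116) of the 24 tested members, ordered within each class, with bars of 1 standard error, filled symbols for an adjusted p under 0.05 and diamonds for members listed as giving polyadenylated transcripts. H3C6 and H3C10 lie lowest among the filled symbols (-2.42 and -2.35), H2BC11 is the filled symbol above 0 (1.46), and no H4 gene is filled.

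Most H4 genes encode the same protein, and several are near copies of each other or, on chromosome 1, duplicated. H4C5, whose sequence was unique, had 22, 9 and 12 counts in HCT116 and 17, 7 and 9 in DNMT3B KO libraries, with overlap (log2 fold change -0.52, edgeR adjusted p = 0.449). The other tested H4 genes shared nearly all of their sequence with a partner, and the counts of a pair moved from one gene to the other between libraries of the same line. H4C11 had 0, 0 and 34 counts in HCT116 and 38, 88 and 20 in DNMT3B KO libraries, where its partner H4C12 had 41, 38 and 0 and then 17, 0 and 30. Fitted singly, the log2 fold change of H4C11 was 1.85 (standard error 1.32, edgeR adjusted p = 0.338), which became 8.65 (adjusted p = 0.00467) without HCT116 replicate 3. For H4C12 it was -0.82 (standard error 1.18, edgeR adjusted p = 0.655). Summed, the pair had 41, 38 and 34 counts against 55, 88 and 50, higher in each DNMT3B KO library, and did not pass (log2 fold change 0.66, standard error 0.35, edgeR adjusted p = 0.194).

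The duplicated genes on chromosome 1 showed the same exchange of counts. H4C14 measured 1.55, 2.17 and 0.734 CPM in HCT116 and 1.08, 0.470 and 1.36 CPM in DNMT3B KO libraries, and H4C15 0.136, 0.0471 and 0.794 CPM and then 0, 0.973 and 0 CPM. Alone, H4C14 gave a log2 value of -0.62 (standard error 0.49, edgeR adjusted p = 0.394), and the sum of the pair -0.49 (standard error 0.26, adjusted p = 0.204). H2AC18 had 113, 87 and 74 counts in HCT116 and 107, 0 and 0 in DNMT3B KO libraries, while its partner H2AC19 had no count in HCT116 and 0, 134 and 81 in DNMT3B KO libraries. H2AC18 alone had a log2 fold change of -1.58 (edgeR adjusted p = 0.408), but the summed pair, with 107, 134 and 81 counts against 113, 87 and 74, had one of 0.13 (standard error 0.29, adjusted p = 0.78). H3C14 and H3C15 summed to 12, 12 and 11 counts against 33, 25 and 6 and did not pass (log2 fold change 0.72, standard error 0.57, edgeR adjusted p = 0.386). Values of the single genes in these pairs are therefore uncertain, and the choice to sum them was made after seeing the data.

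**Figure D4:**
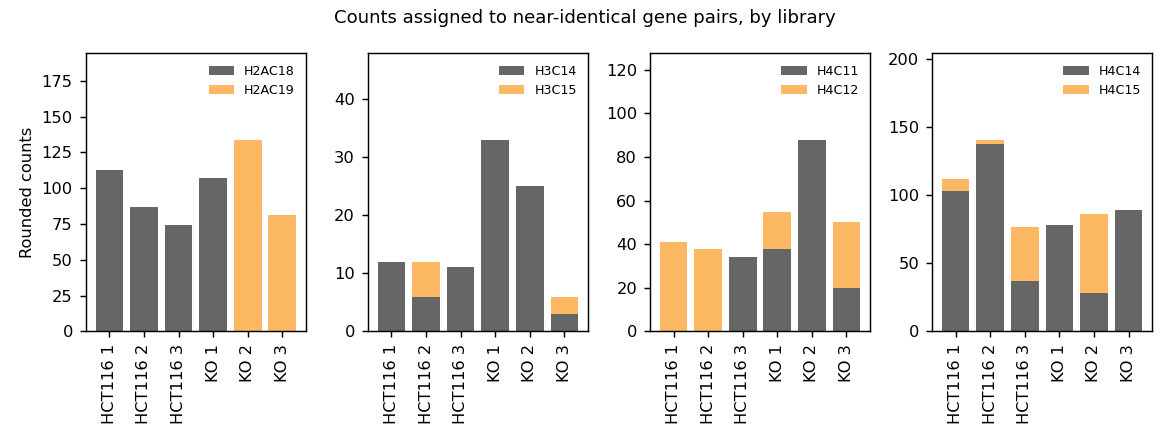
Rounded counts (y axis, linear from 0) assigned to each gene of 4 near-identical pairs in the 3 HCT116 and 3 DNMT3B KO libraries, stacked so that the height of a bar is the sum of the pair. The split changes from library to library, as in H2AC18 and H2AC19, where DNMT3B KO replicate 1 has 107 counts in the first gene and replicates 2 and 3 have 134 and 81 in the second.

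Most of the difference in summed level lay in the 6 members known to give polyadenylated transcripts, H1-2, H2AC6, H2BC4, H2BC5, H2BC12 and H2BC21. These 6 were listed from general knowledge with earlier results of these data known, and they held most of the summed level in both lines. Together they measured 21.2 ± 2.98 CPM (SD, n = 3) in HCT116 libraries against 11.9 ± 2.20 CPM (SD, n = 3) for DNMT3B KO, a ratio of 0.560, and their libraries did not overlap. Of these 6, H1-2, H2AC6, H2BC5 and H2BC12 fell and H2BC4 and H2BC21 did not pass, while 15.1% of all tested genes fell. The 60 other members measured 11.4 ± 0.519 CPM (SD, n = 3) and 9.99 ± 1.52 CPM (SD, n = 3), a ratio of 0.874 with overlapping libraries. Without the 6, the ratio was 0.963 in H2A, 0.914 in H2B and 1.83 in H1, where H1-4 was then nearly all that remained. H3 and H4 hold no gene of this list, so their ratios were the same as before. The 60 other members thus include H3C6 and H3C10, which fell. Per length of merged exons, the most abundant members in HCT116 were H2BC12 at 11.3, H1-2 at 7.63, H2BC5 at 3.91 and H2AC6 at 3.20 CPM per kb. These are the 4 genes that fell among the 6, but a ranking by HCT116 level favours genes that fell. In DNMT3B KO, H2BC12 (5.97), H1-2 (3.555) and H2BC5 (2.352) were again highest, followed by H2AC11 (2.193), with H2AC6 at 1.589 CPM per kb.

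The annotated structure of a member, which was not used to choose it, was compared with its detection. A spliced transcript, or merged exons over 1000 bases, was annotated for 15 members, of which 11 were tested, 4 fell and 1 rose. The 51 members with a single exon of up to 1000 bases gave 13 tested genes, of which 2 fell, H1-2 and H2BC12. The shares called were 45.5% and 15.4%, against 28.1% of all tested genes. These counts describe the members that passed the filter and carry no test. At least 50% of 50-base stretches were unique in 50 members, of which 15 were tested and 6 called (40.0%). Among the 16 other members, 9 were tested and 1 was called (11.1%).

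Of the 24 members with a count below the filter, 8 (33.3%) had libraries that did not overlap between the lines in CPM, against 11.8% of all 13103 such genes, which were not matched on counts. H2AC13 had 9, 8 and 8 counts in HCT116 and 0 in each DNMT3B KO library, which is at least 3.05-fold lower if each library at 0 is given 3 counts. In a fit with no filter on low counts, in which 16.6% of 30062 genes were called, H2AC13 was called lower (edgeR adjusted p = 0.00268), as it was by DESeq2 (adjusted p = 0.00418). H2AC13 shares most of its sequence with H2AC14, and 36.5% of its stretches were unique. H3C13 had 2, 2 and 3 counts in HCT116 and 13, 7 and 8 in DNMT3B KO libraries, without overlap (adjusted p = 0.111 in the fit with no filter). Of its stretches 28.1% were unique and 49.8% were shared with H3P4. H2BC6, with 17, 10 and 9 counts against 8, 3 and 6, and H2AC7, with 5, 6 and 8 against 5, 0 and 0, were lower in each DNMT3B KO library in CPM. H4C8, with 1, 7 and 5 counts against 9, 7 and 17, H2BC17, with 4, 6 and 1 against 8, 6 and 13, H2AC15, with 2, 1 and 1 against 5, 4 and 3, and H4C1, with 2, 2 and 0 against 3, 2 and 3, were higher. None of these 6 was called in that fit (edgeR adjusted p from 0.209 to 0.629). Of the stretches of H2AC7, 16.1% were unique. Beside H1-6, H2AC19, H3C15 and H4C15, which are described with their classes or near copies, the other 12 members below the filter, H2AC4, H2AC21, H2BC7, H2BC8, H2BC13, H2BC14, H3C1, H3C2, H4C2, H4C3, H4C4 and H4C9, had between 1 and 41 counts over the 6 libraries, and their libraries overlapped. Members at 0 throughout were H2AC8, H2AC16, H2BC3, H2BC9, H2BC10, H3C3, H3C4, H3C7, H3C8, H3C11, H4C6, H4C7 and H4C13, beside the H1 genes named above and the pair H2AC1 and H2BC1. For H3C4 the 0 is uncertain, since 3.52% of its stretches were unique and 96.5% were shared with another annotated gene, ENSG00000282988, to which its reads could have been assigned.

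The members form 5 groups on the genome, and those that changed all lay on chromosome 6, which also held 18 of the 24 tested members. On chromosome 6, 55 members gave 18 tested genes, of which 6 fell and 1 rose (38.9%), against 28.1% of all tested genes. On chromosome 1, between 149782689 and 149887965, 11 members gave 6 tested genes, of which edgeR called 0, 1 (H2AC20) had an unadjusted p under 0.05 and DESeq2 called 0. Of the 6 tested on chromosome 1, H2AC18, H3C14 and H4C14 are near-identical to a partner, so their single counts are uncertain. The difference between the chromosomes was not tested. The largest group, 32 members between 26017032 and 26285638, had 3141 counts in HCT116 and 1814 in DNMT3B KO libraries and held H1-2, H2AC6, H2BC5 and H3C6. The 5 members between 27125897 and 27147562 had 1299 and 944 counts and held H2BC11 and H2BC12, and the 16 members between 27807479 and 27893891 had 566 and 454 counts and held H3C10. The 2 members between 25723397 and 25727345, H2AC1 and H2BC1, had no count.

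Divergent neighbours did not always share a call. Of 12 head-to-head pairs with start sites 170 to 319 bases apart, both genes were tested in 4. H2BC4 had 84 counts in HCT116 and 96 in DNMT3B KO libraries and did not pass, and H2AC6, which starts 219 bases away, had 980 and 516 and fell. H2BC12 had 1005 and 575 counts and fell, and H2AC12, 251 bases away, had 14 and 36 and did not pass. H2BC11 had 35 and 109 counts and rose, and H2AC11, 248 bases away, had 239 and 213 and did not pass. H2BC21 and H2AC20, 236 bases apart on chromosome 1, both missed the threshold. That 1 gene of a pair passed and the other did not is no test of their difference.

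Between the first and last member on chromosome 6, 22 tested genes belonged to other families, leaving out ENSG00000282988, a gene that holds most of the sequence of H3C4 and H2AC7. Of these, 6 fell and 1 rose (31.8%), with a median log2 fold change of -0.29, against 28.1% of all tested genes. Within the largest group of members, HFE, a regulator of iron uptake, fell from 15.3 to 5.29 CPM (log2 fold change -1.53, edgeR adjusted p = 0.00068), and just before it TRIM38, a ubiquitin ligase gene, fell from 29.0 to 7.77 CPM (log2 fold change -1.90, edgeR adjusted p = 0.00104). Lower fold changes were those of AL590062.1, a long non-coding RNA gene, at -6.44 (0.607 and 0.00462 CPM, edgeR adjusted p = 0.000284), and of the zinc finger gene ZNF391, at -5.48 (1.69 and 0.0367 CPM, edgeR adjusted p = 0.000103). ZNF184, also a zinc finger gene, rose from 13.1 to 19.9 CPM (log2 fold change 0.61, edgeR adjusted p = 0.00474).

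**Figure D5:**
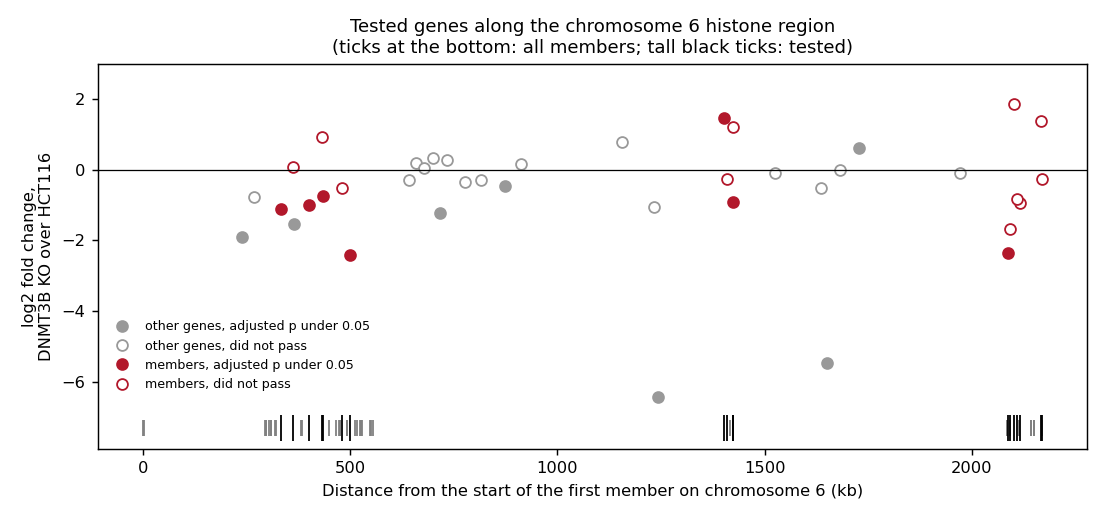
Log2 fold change (DNMT3B KO over HCT116) of tested members (red) and tested genes of other families (grey) against the distance from the start of the first member on chromosome 6, filled where the adjusted p was under 0.05, with ticks for all members and tall black ticks for tested ones. Of the other genes that fell, HFE lies within the largest group of members and TRIM38 just before it (364 and 239 kb). BTN3A3, ABT1, AL590062.1 and ZNF391 fell and lie between groups of members, from 717 to 1651 kb. The 22 other genes have a median log2 fold change of -0.29.

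Most genes that make and process histone mRNA did not pass, but neither did most tested genes, of which 28.1% were called. Of 14 tested genes for transcription and 3′ end processing of histone pre-mRNA, 2 rose and 12 did not pass. CASP8AP2, a factor of the histone locus body, measured 45.3, 35.3 and 37.02 CPM in HCT116 and 59.1, 55.7 and 48.4 CPM in DNMT3B KO libraries, without overlap (log2 fold change 0.47, edgeR adjusted p = 0.0246). CPSF3, the endonuclease that cleaves histone pre-mRNA, rose with a log2 fold change of 0.42 (edgeR adjusted p = 0.0292). CASP8AP2 was not called without DNMT3B KO replicate 1 or 2 (adjusted p = 0.0988 and 0.0895), nor CPSF3 without HCT116 replicate 1 or any DNMT3B KO replicate (adjusted p from 0.0733 to 0.128). SLBP, the stem-loop binding protein, gave a log2 change of 0.03 (standard error 0.13, edgeR adjusted p = 0.883) and NPAT, the coactivator of histone gene transcription, one of 0.22 (standard error 0.13, edgeR adjusted p = 0.248), and both overlapped.

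Of 4 genes for histone mRNA decay, 1 fell. Each count in this paragraph stands beside a share of 28.1% called over all tested genes. ERI1, the exonuclease that trims the histone stem-loop, measured 101.8, 100.5 and 111.9 CPM in HCT116 and 40.0, 38.5 and 42.8 CPM in DNMT3B KO libraries, a fall of 2.59-fold (log2 fold change -1.37, standard error 0.09, edgeR adjusted p = 2.71e-05). Among 8 histone chaperones, RBBP4, a subunit of the chromatin assembly complex, rose (log2 fold change 0.52, edgeR adjusted p = 0.00298) and 7 did not pass. Of the 19 genes of S phase and DNA replication, 1 fell, the helicase subunit gene MCM4 (log2 fold change -0.96, edgeR adjusted p = 0.0262), and 18 did not pass. Without HCT116 replicate 2, in which this list was low, 3 fell, and the call of MCM4 was lost without HCT116 replicate 1 or any DNMT3B KO replicate (adjusted p from 0.0802 to 0.100). The median log2 fold change of the list was 0.06. The part of the S phase list in the levels of the members was not tested.

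Among histone genes outside the replication-dependent set, H2AJ, an H2A variant gene, measured 28.0, 31.2 and 30.3 CPM in HCT116 and 0.347, 0.436 and 0.228 CPM in DNMT3B KO libraries, without overlap, and fell (log2 fold change -6.47, edgeR adjusted p = 1.04e-06). MACROH2A2, a macroH2A gene, rose (log2 fold change 0.49, edgeR adjusted p = 0.00424).

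RNAs that lack a poly(A) tail served to describe what the libraries held of such RNA. They are 14 small non-coding RNAs such as RN7SK and RN7SL1, listed in 15 rows since RMRP has 2 identifiers. They summed to 14.95, 13.8 and 8.67 CPM in HCT116 and 14.5, 20.8 and 8.85 CPM in DNMT3B KO libraries, with overlap. Of 6 that were tested, edgeR called 0, 0 had an unadjusted p under 0.05 and DESeq2 called 0. Over all tested genes, edgeR called 28.1%. Their part in the values of the members was not tested.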

How the data were processed

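RNA-seq libraries of HCT116 and DNMT3B KO cells (3 each) were analysed. The authors aligned paired-end reads to hg38 with STAR in nf-core/rnaseq 3.12.0, quantified Ensembl 103 transcripts using Salmon, and for each library deposited gene-level estimated counts with gene-length scaling, which were rounded to integers here. Genes were filtered with filterByExpr (minimum count 10, minimum total 15), libraries were scaled by TMM, and genotype was tested as the single factor in edgeR 4.0.16 (R 4.3.3) by its quasi-likelihood F test, with Benjamini-Hochberg adjustment over all tested genes and a threshold of 0.05. Standard errors are the size of the log2 fold change divided by the square root of F. DESeq2 1.42.0 was an alternative. The deposited totals per library give the depth, and floors of 3 counts cover counting error only.

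Positions came from GENCODE 44 on the same build, where 60437 gene IDs matched, and 2 members, H2AC18 and H2AC19, were matched by symbol. The counts assign reads of near-identical genes by a statistical estimate. Uniqueness is the share of 50-base stretches of a gene's transcripts found in no transcript of another gene. Promoter windows were RefSeq sequences, identical to hg38 at all 61 matched members.

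Members with full statistics were, in each class, up to 4 called members with the smallest adjusted p, the 2 with the highest mean CPM and those with the largest fitted decrease and increase. From other lists, up to 3 called genes and SLBP, NPAT and DNMT3B were named. One result of the list of replication-independent histone genes, and the totals of that list, are not reported here. HFE, TRIM38, AL590062.1, ZNF391, ZNF184, the members with uneven or low counts and the epithelial markers were chosen after their values were seen. The members and lists were chosen with earlier results of these data known. The fit was tested on simulated data. Alternatives changed the scaling, filter, tool, replicate block and libraries, and summing near-identical pairs was added after seeing the data.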

Additional observations from a re-analysis of the deposited data

How the results depend on the processing

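No fold change of the 16 members given full statistics changed sign under the alternatives run that fitted them. H4C12 (-0.82) was not fitted singly where near-identical pairs were summed, and its pair with H4C11 had a log2 fold change of 0.66. Outside the 16, H2AC18 had a log2 fold change of -1.58 alone and 0.13 when summed with H2AC19. Members called higher (1) numbered 2 with library totals alone, 2 when low counts were not filtered and 0 with a minimum mean of 1 CPM, and 0 to 4 when libraries were left out one at a time, while members called lower (6) then numbered 2 to 6. H1-2 and H3C10 kept their call in every alternative that tested them. Library totals alone moved the median of all tested genes by 0.13 on the log2 scale, with which H2AC6 and H2BC5 lost their calls (adjusted p = 0.0754 and 0.0951) and H2AC12 was called (adjusted p = 0.0328). H2BC5 was also lost with no filter (adjusted p = 0.0586). By class, H2A genes called higher (0) numbered 1 with totals alone and 1 with no filter (H2AC19, whose near copy is H2AC18), and 0 to 1 with a library left out, and H2A genes called lower (1) numbered 0 with totals alone, 2 by DESeq2 and 2 with no filter, and 0 to 1 with a library left out. Without DNMT3B KO replicate 1, the H2A gene called lower was H2AC18, whose near copy H2AC19 was then called higher. H2B genes called higher (1) numbered 0 at 1 CPM or more and 0 to 1 with a library left out, and those called lower (2) numbered 1 with totals alone, 1 with no filter and 0 to 2 with a library left out. H3 genes called lower (2) numbered 0 at 1 CPM or more, since the means of H3C6 and H3C10 over all libraries lie below that level, and 1 to 2 with a library left out. H3 and H4 genes called higher (0 each) numbered 0 to 1 with a library left out. DESeq2 called 1 gene of transcription and processing lower and 2 chaperones higher. With a library left out, the ranges were 0 to 4 higher and 0 to 1 lower for transcription and processing, 1 to 3 higher for chaperones, and 0 to 1 higher and 0 to 3 lower for S phase. The ratio of summed CPM without the polyadenylated list was 0.874 for all members, 1.83 for H1, 0.963 for H2A and 0.914 for H2B. Except where stated, the cause was not tested.

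Same-numbered libraries did not pair (correlations of deviations 0.064, -0.0096 and 0.12). In a fit blocked on replicate number (replicate block), 4214 genes were called and H2B genes called lower numbered 1, since H2BC5 had an adjusted p of 0.0681. Leaving out single libraries gave 3049 to 5924 calls over all genes. Most members lie at or under 1 CPM, and whether smaller differences in them could be detected at this depth was not tested.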
